A study of Mus musculus with 9 samples.

Results

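The replication-dependent histone genes were followed through RIPiT-seq of WDR5 in mouse embryonic stem cells. RIPiT-seq recovers the RNA that copurifies with a tagged protein in 2 successive immunoprecipitations. The genes were taken by symbol, as every row named for the Hist1, Hist2, Hist3 or Hist4 cluster and for a linker or core histone. This gave 75 of the 24132 rows, of which 6 were H1, 22 were H2A, 21 were H2B, 12 were H3 and 14 were H4. The Hist1 cluster held 59 of them, Hist2 held 12, Hist3 held 3 and Hist4 held 1.

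Replication-dependent histone genes supply the proteins that package newly made DNA. The core histones H2A, H2B, H3 and H4 form the nucleosome, and the linker histone H1 binds where DNA enters and leaves it. Their messages are made mostly in S phase and, unlike other mRNAs, usually end in a short stem-loop in place of a poly(A) tail. The stem-loop is bound by SLBP, which takes part in 3′ end processing, export, translation and decay of these mRNAs. Transcription in the clusters is driven by NPAT, and H2A and H2B genes often lie head to head on a shared promoter. WDR5 is an adaptor subunit of the MLL complexes that methylate histone H3 on lysine 4, and it also binds RNA.

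All 3 ESC lines were of the 129/B6 F1 hybrid strain and were grown without feeder cells in the presence of LIF. The empty vector line had received a lentivirus with no tagged WDR5, the WT line one with FLAG-HA-tagged human WDR5, and the F266A line one with the tagged human mutant in which phenylalanine is replaced by alanine. Every line kept its own mouse Wdr5. The tagged lines were clones selected for a level of tagged protein near that of endogenous WDR5, and the F266A construct also lacks 20 residues at its N terminus, which the WT construct keeps. Cells were fixed with formaldehyde, complexes were purified through FLAG and then HA, and recovered RNA was amplified before sequencing in reads of 50 nt. Each line had 1 input library and 2 IP libraries, 9 in all. The replicates are called replicates by the labels, which do not say whether they are separate cultures. The p-values measure only the spread between the 2 IP libraries of a line. Inputs, with 1 library each, were assumed to vary like the IPs.

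Levels are RPKM, in which reads are divided by a transcript's length and by the library's mapped reads, as deposited by the authors. Depth was estimated at 13400000 to 50400000 mapped reads per library, the empty vector IP 2 being the least deep. At these depths an RPKM of 10 on 500 bases stands for 67 reads in the shallowest and 252 reads in the deepest library. PCR copies are not independent, so these figures cover counting error only. All 11 pluripotency markers examined, Pou5f1 and Nanog among them, had an RPKM of at least 1 in every library, and 6 of 7 fibroblast markers were below 0.1 in every library. The summed level of 20 primitive endoderm markers was 62.5 in the F266A input and 80.6 in F266A IP 2, against 22.8 in F266A IP 1 and 23.3 to 30.7 in the libraries of the other lines. The part that this difference within the F266A line plays in the results was not tested, and counts are also given without that line or without each of its IPs.

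The sequence that these messages share is shown first, because it marks them as a class. In mm9 a perfect stem-loop of 6 paired bases on each side of a loop of 4 was found within 100 bases after the stop codon in 58 of the 66 members with a coding model in GENCODE M1. Capitals mark the paired bases of the stem, and 1 gene stands for each common form.
Hist1h2bn: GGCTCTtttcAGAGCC
Hist1h2bk: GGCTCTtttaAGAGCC
Hist1h4d: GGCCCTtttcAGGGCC
Hist2h4: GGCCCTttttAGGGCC
The first form was carried by 36 members of the types H1, H2A, H2B and H3, and the second by 9 members of the same types. The third was carried by 8 H4 members and the fourth by 2 H4 members, so the stem of H4 genes differed from that of the other types. The elements shown lie at chr13:21846402-21846417 on the plus strand, chr13:22128169-22128184 on the plus strand, chr13:23673819-23673834 on the plus strand and chr3:96066862-96066877 on the minus strand. Those of Hist1h4d and Hist2h4 lie within the gene model in GENCODE M1. The elements of Hist1h2bn and Hist1h2bk lie past the end of theirs. In the order shown, the elements begin 29, 32, 36 and 38 bases after the stop codon. Hist1h2bp, Hist1h2bq and Hist1h2br were among the 8 coding members with no such match in this window, and Hist1h2bq and Hist1h2br have long gene models of chr13:21898281-21902068 and chr13:21925612-21929399. The search began after the outermost annotated coding end. A stem-loop that follows an earlier stop codon in such a model was therefore not searched for, and no match does not mean that the gene lacks one.

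Members of a type are so alike that many reads fit more than 1 gene. The share of 50-base windows of a gene's coding sequence that occur at more than 1 site of mm9 had a median of 84.2% for H2A, 79.0% for H2B, 79.2% for H3 and 71.2% for H4, but of 10.99% for H1. More windows were shared than not in 50 of 68 genes with a model, all windows in 11, and none in 6, which were Hist1h1a, Hist1h1b, Hist1h1t, Hist2h2bb, Hist2h2be and Hist4h4. How reads that fit several sites were counted is not given in the sources used here, so values of single H2A, H2B, H3 and H4 genes may not be independent. The row of Hist1h2bq equalled that of Hist1h2br in all 9 libraries, and the second row of each, named Hist1h2bq.2 and Hist1h2br.2, equalled the other. All windows of these genes were shared, and so were those of Hist1h4m and Hist1h4n, whose coding sequences are identical. Counting each set of equal rows once left 73 members, and 7 of the 75 rows were second rows of a symbol.

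Histone mRNAs were abundant in every library. The 73 distinct members summed to an RPKM of 3605 to 4422, which was 4.33% to 5.17% of all summed RPKM in the 3 inputs and 3.69% to 4.23% in the 6 IPs, so the inputs and the IPs did not overlap. In the inputs of the empty vector, WT and F266A lines, the summed RPKM of H2A genes was 1516, 1273 and 1370, that of H4 genes 1342, 1052 and 1130, and that of H2B genes 1004, 871 and 989. H3 genes summed to 525, 378 and 412, and H1 genes to only 34.2, 30.3 and 29.8. By these sums H2A was the highest and H1 the lowest type in each input, and H4 exceeded H2B in each of the 3. The sums include second rows of a symbol whose values differ from the first, and 4 second rows were of H2A and 1 of H4. The order of H2A and H4 without them was not tested.

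**Figure D1:**
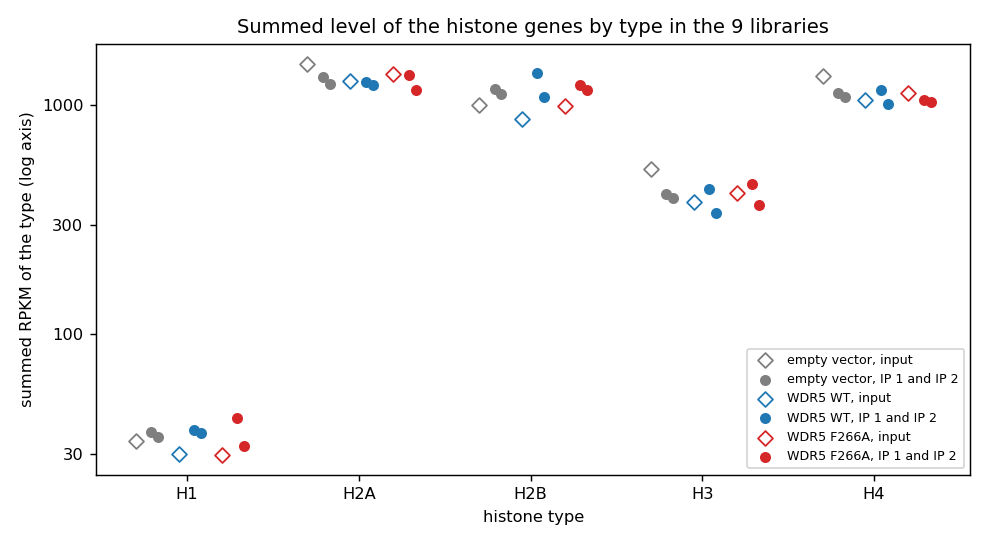
Summed RPKM of the histone genes of each type (log axis) in the input (open diamond) and the 2 IPs (filled circles) of the empty vector, WDR5 WT and WDR5 F266A lines, with rows of identical values counted once. The H1 and H2B points of the IPs lie above the input of their line in all 3 lines, with 1377 for H2B in WT IP 1 against 871 in the WT input, and H1 ranged from 29.8 to 43.2.

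The single genes with the highest levels were Hist1h4d, an H4 gene with a mean RPKM of 191 over the 9 libraries, and the H2B genes Hist1h2bl (131) and Hist1h2bk (121). Among H2A genes Hist1h2ap (112), its second row Hist1h2ap.2 (105) and Hist1h2ad (100) led, and among H4 genes Hist1h4c (110) and Hist1h4b (102.6) followed Hist1h4d. H3 genes were led by Hist2h3b (56.1), Hist1h3e (50.02) and Hist1h3b (45.6), and H1 genes by Hist1h1b (12.2), Hist1h1a (9.41) and Hist1h1e (6.78). Both Hist1h2bf (98.3) and the testis gene Hist1h2ba (58.9) were high among H2B genes. Of the other genes known from testis, Hist1h2aa had a mean RPKM of 5.56 and Hist1h1t, the H1 of spermatocytes, of 0.118. Hist1h1t was at 0 in the empty vector IP 2 and at 0.282 or below in the others, while the remaining 74 members were above 0 in all libraries. The 7 male germ cell markers examined, among them Prm1 and Tnp1, summed to 2.05 to 3.93. Hist1h2ba shared 37.7% of its windows with other H2B genes, and Hist1h2aa shared 2.37%. All coding windows of Hist1h2ap and Hist1h2ad also occur at other sites of mm9. The part of shared reads in the level of Hist1h2ba, or of the other genes ranked here, was not tested.

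The inputs differed between lines for the histone genes. The WT input held less than the empty vector input in 74 of 75 members, with a median difference of −0.25 in log2 (RPKM + 1), while the median over 9787 genes was 0.00044 and 49.9% of them were lower. The F266A input was lower than the empty vector input in 68 of 75 members, with a median of −0.15 against −0.12 over all genes. The WT input was the lowest of the 3 for 66 members, against 18.3% of all genes tested. H3 and H4 genes had the largest differences between the WT and the empty vector input, with medians of −0.42 and −0.36. Each input is 1 library, so these differences have no replicate check, and fewer cells that make a message and less of it per cell cannot be told apart.

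Next, the IPs were set against the inputs. The enrichment score of a gene is its log2 (RPKM + 1) in an IP less that in the line's own input, and adding 1 shrinks the scores of genes with low levels. Over 9787 genes, those that reached an RPKM of 1 in 2 libraries or more, the median score was 0.26 to 0.39 in the 6 IPs, so IPs lay above inputs for most genes, tagged WDR5 or not. Averaged over the 3 lines, the median difference between IPs and inputs was 0.30 for all genes tested, and changes of the histone genes were read against it. Of the 75 members 71 passed the filter, and the other 4 were Hist1h1t, Hist2h2be, Hist3h2bb-ps and Hist4h4.

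The H2B median lay close to the median rise of all genes in the IPs, and H2A, H3 and most H4 genes lay below that rise. The median difference between IPs and inputs was 0.31 over 19 H2B rows, but −0.14 over 22 H2A rows, −0.12 over 12 H3 rows, −0.14 over 13 H4 rows and 0.0053 over 5 H1 rows. Relative to the median of all genes these are 0.0085, −0.43, −0.42, −0.44 and −0.29. The median of all members was −0.11, and only 5.24% of all genes tested had a difference below 0, against 47 of 71 members. By limma with Benjamini-Hochberg adjustment, 14 of 71 members were higher in the IPs and 0 were lower, where 56.4% of all genes tested were higher and 0.47% were lower. The share of members called higher was therefore far below that of all genes. When every library was scaled to the same distribution by quantile normalization, the split turned to 0 members higher and 44 lower, of which 20 were H2A, 12 were H3 and 12 were H4 and none was H1 or H2B, beside 101 higher and 138 lower among all genes. When each library was centred on its median the split was 0 higher and 2 lower, Hist1h2ac and Hist1h4h, beside 92 and 61 among all genes. The number of members higher also rested on single libraries and on the filter, being 7 without the empty vector IP 1, 9 without the empty vector IP 2, 7 without the empty vector line, 8 without the F266A line and 4 with all rows kept.

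**Figure D2:**
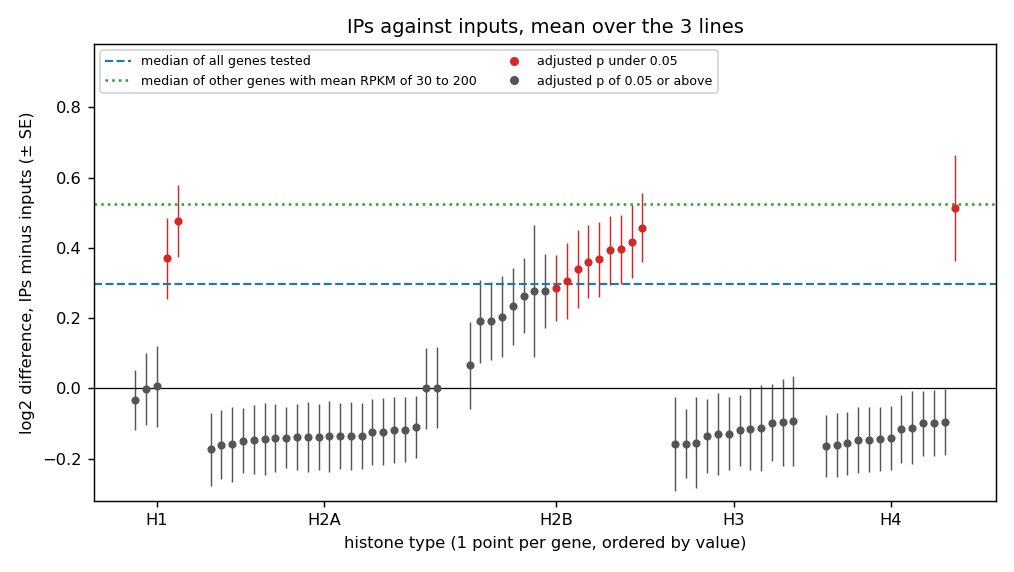
Difference between IPs and inputs in log2 (RPKM + 1), averaged over the 3 lines, for each distinct histone gene that passed the filter, ordered by value within its type, with SE bars from the limma fit to 9 libraries. The dashed line is the median of all genes tested (0.30) and the dotted line that of 289 other genes of similar level (0.52). H2B genes spread from 0.07 to 0.46, while H2A, H3 and all but 1 H4 genes lay below or near 0.

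The contrast with other genes of similar level was larger. Of the 289 other genes with a mean RPKM of 30 to 200, a range chosen after the values were seen, 260 were higher in the IPs, their median difference was 0.52 and 0.692% lay below 0. Of the 51 members in that range 7 were higher, the median was −0.12 and 72.5% lay below 0. Within it all 12 H2B rows were above 0 and 6 were called higher, with a median of 0.29. H2B genes thus also lay below the other genes of similar level. All 8 H3 rows in the range were below 0.

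H2B, which pairs with H2A in the nucleosome, had 11 of 19 rows higher in the IPs, or 9 of 17 with equal rows counted once, a share near the 56.4% of all genes tested. Hist1h2bn had an RPKM of 75.1 in the input of the empty vector line and 99.7 and 93.9 in its IPs, of 67.4 and then 108 and 91.8 in the WT line, and of 72.8 and then 101 and 98.9 in the F266A line. Its 6 IPs lay above its 3 inputs without overlap, and the difference was 0.46 (SE 0.10, adjusted p = 0.0072). Hist1h2bk had an RPKM of 104, 91.0 and 102 in the empty vector, WT and F266A inputs, of 132 and 125 in the empty vector IPs, of 151 and 123 in the WT IPs and of 135 and 130 in the F266A IPs. Here too every IP exceeded every input (0.42, SE 0.10, adjusted p = 0.0115). Hist1h2bq and Hist1h2br, with 1 shared set of values, had 20.9, 18.1 and 20.3 in the inputs and 26.2, 24.5, 30.1, 24.2, 26.8 and 25.8 in the IPs in the same order of lines, a difference of 0.39 (SE 0.10, adjusted p = 0.0124).

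The further H2B rows called higher were Hist1h2bq.2 and Hist1h2br.2 (0.40 each), Hist1h2bp (0.37), Hist1h2bb (0.36), Hist1h2bj (0.34), Hist1h2bl (0.31) and Hist1h2be (0.29). Under quantile normalization the estimates of 9 of the 11 turned to between −0.16 and −0.02, Hist1h2bn and Hist1h2bk keeping values of 0.09 and 0.02, and with libraries centred on their medians those of Hist1h2be and Hist1h2bl turned to −0.02 and −0.0042. Hist2h2bb, the H2B gene with the lowest mean score among those at a mean RPKM of at least 1, had 5.51, 4.04 and 5.89 in the inputs and 4.28 to 6.71 in the IPs, which overlap. Hist2h2bb shares no window with another site.

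The H1 linker histones divided. Hist1h1b had an RPKM of 10.4, 9.07 and 8.88 in the empty vector, WT and F266A inputs and of 14.2, 13.9, 13.6, 14.3, 14.5 and 10.9 in the IPs. All IPs lay above all inputs, with a difference of 0.48 (SE 0.10, adjusted p = 0.0075). Hist1h1e was also higher (0.37, SE 0.11, adjusted p = 0.0266), from 5.93, 5.10 and 5.46 in the inputs to between 6.05 and 8.60 in the IPs. Hist1h1a had 10.3, 9.27 and 8.51 in the inputs and 9.09, 7.74, 9.63, 9.87, 11.8 and 8.47 in the IPs, so its groups overlapped, and Hist1h1d, with 3.05 to 3.15 in the inputs and 2.71 to 3.54 in the IPs, had the lowest mean score of its type among genes with a mean RPKM of at least 1. All coding windows of Hist1h1a and of Hist1h1b occur at 1 site each.

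None of the 22 H2A rows was called in either direction, and none had an unadjusted p under 0.05. Hist1h2ak had an RPKM of 70.2 in the input of the empty vector line, against 63.5 and 54.0 in its IPs, of 59.4 and then 56.6 and 53.9 in the WT line, and of 66.7 and then 64.7 and 54.8 in the F266A line. Each IP was below the input of its own line, and the same held for 11 of the 22 H2A rows. The share of all genes below their input in all 6 IPs was not counted. H2A rows share many windows and may not be independent, so the count is not read as a trait of that type. Scores of the H2A rows within an IP were close together, with an SD of 0.05 to 0.13 where that of all genes was 0.23 to 0.35. Those of the H3 rows were also close together, with an SD of 0.02 to 0.09. Rows of both types share many windows, and the part of this in the SD was not tested. Hist2h2ac had the highest mean score of the type, with scores from −0.20 to 0.24. All 22 H2A rows had scores below the median of all genes in all 6 IPs. The share of all genes below that median in all 6 was not counted either.

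H3 and H4 genes encode the tetramer at the centre of the nucleosome, and H3 carries the lysine that MLL complexes methylate. None of the 12 H3 rows was called and none had an unadjusted p under 0.05. Hist1h3b had 58.0, 42.4 and 44.4 in the inputs and 44.5, 43.9, 47.7, 37.9, 51.0 and 40.2 in the IPs of the empty vector, WT and F266A lines. Its level was highest in the empty vector input, the other 8 libraries overlapped, and the same order held for Hist2h3b (75.4 in that input, 41.9 to 63.4 elsewhere). Of 13 H4 rows only Hist2h4 was called, with 33.6, 23.2 and 20.7 in the inputs and 46.1, 40.2, 38.2, 27.9, 42.1 and 28.6 in the IPs, a difference of 0.51 (SE 0.15, adjusted p = 0.0217). The IPs of each line lay above its own input, although the WT IP 2 and the F266A IP 2 were below the empty vector input. Hist2h4 shares 6.15% of its coding windows with other sites, against a median of 71.2% for its type, and its gene model runs on past the stem-loop printed above.

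Hist1h4d shared 42.7% and had 225, 187 and 192 in the inputs and 203, 187, 202, 166, 182 and 176 in the IPs, with scores from −0.26 to 0.11. Hist1h4h, with scores from −0.34 to 0.09, had the lowest mean score of the H4 genes at a mean RPKM of at least 1.

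**Figure D3:**
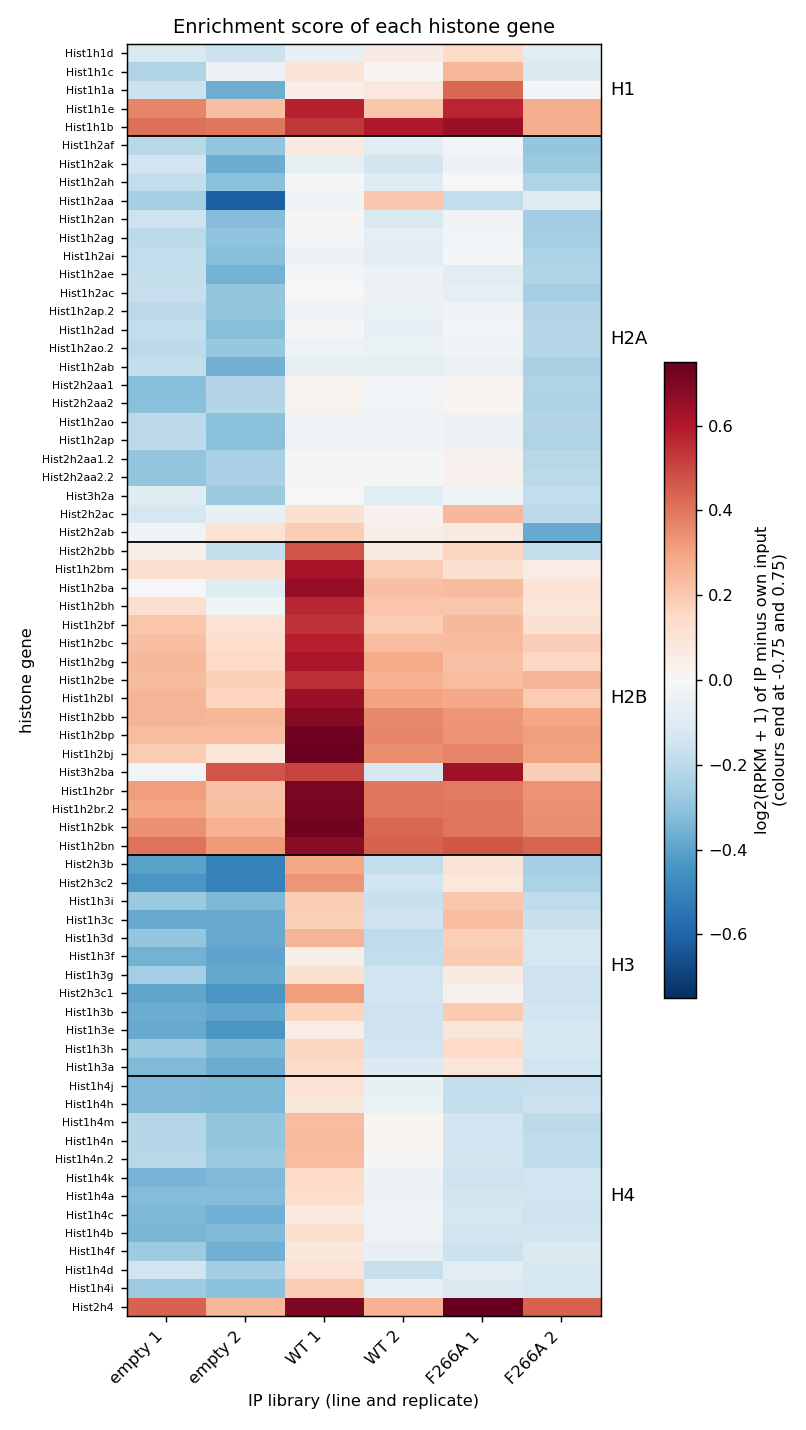
Enrichment score of each distinct histone gene that passed the filter (rows, grouped by type and ordered by median) in each of the 6 IPs (columns), with red above 0 and blue below 0 on the log2 scale. H2B rows are red in nearly all columns, H2A rows are mostly blue, and H3 and H4 rows are mostly blue outside WT IP 1 and, for H3, F266A IP 1. Among H4 rows Hist2h4 is red throughout, and Hist1h4m, Hist1h4n and Hist1h4n.2 lie near 0 in WT IP 2.

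The difference between types held in every IP. The median H2B score exceeded the median H2A score by 0.43 ± 0.13 (SD over 6 IPs), from 0.30 in F266A IP 1 to 0.66 in WT IP 1, and it exceeded the H4 median by 0.43 ± 0.09. It exceeded the H3 median by 0.43 ± 0.16, with the least gap of 0.15 in F266A IP 1. These gaps were above 0 in 6 of 6 IPs, the empty vector IPs included, and rest on the same 6 libraries and 3 inputs. Scores were above 0 in all 6 IPs for 15 of 21 H2B rows, 2 of 6 H1 rows, 1 of 14 H4 rows and none of the H2A and H3 rows. Among all genes tested, 85.5% to 96.3% had a score above 0 in a single IP. Their share above 0 in all 6 was not counted, so the H2B count is not read as a trait of that type.

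Divergent gene pairs allowed H2A and H2B to be compared at 1 locus. In GENCODE M1 13 H2A genes had an H2B gene on the opposite strand, with starts 168 to 306 bases apart (median 216). The H2B score exceeded that of its H2A partner in all 6 IPs in 12 of these pairs. Among the 12 is Hist3h2a with Hist3h2bb-ps. The latter is annotated as a pseudogene, had a mean RPKM of 0.508 and did not pass the filter. The pairs of Hist1h2bq and Hist1h2br, also among the 12, hold equal H2B values. For Hist1h2ak and Hist1h2bn, with starts 216 bases apart at chr13:21845264-21845776 and chr13:21845992-21846372, the gap ran from 0.51 to 0.75. For Hist1h2ah and Hist1h2bk it ran from 0.40 to 0.74. The exception was Hist2h2ac with Hist2h2be, in which H2B was above in 2 of 6 IPs and Hist2h2be had a mean RPKM of 0.266. Several of these genes share windows with genes of other pairs, so the pairs are not independent.

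**Figure D4:**
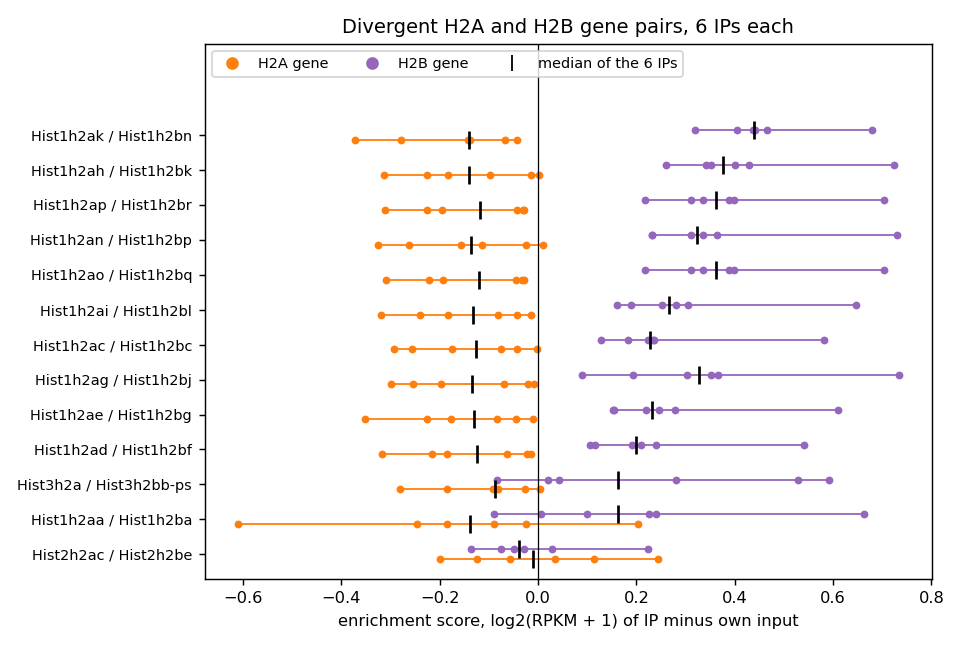
Enrichment scores of the H2A gene (orange) and the H2B gene (purple) of 13 divergent pairs in the 6 IPs, with a black mark at the median of each gene. The H2B points lie to the right of the H2A points without overlap in 10 pairs, and Hist2h2ac with Hist2h2be has overlapping scores near 0. Hist3h2bb-ps is an annotated pseudogene.

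One promoter stretch is printed because it serves such a pair and holds each motif that was searched. It is the Hist1h2bk promoter from RefSeq on GRCm38.p6, chr13:22035571-22035870, plus strand, 250 bases before to 50 after the start, and it reads into the promoter of Hist1h2ah on the other strand. Capitals mark ATTTGCAT (the octamer bound by POU factors), TATAAA and CCAAT, each searched on both strands.
Hist1h2bk promoter: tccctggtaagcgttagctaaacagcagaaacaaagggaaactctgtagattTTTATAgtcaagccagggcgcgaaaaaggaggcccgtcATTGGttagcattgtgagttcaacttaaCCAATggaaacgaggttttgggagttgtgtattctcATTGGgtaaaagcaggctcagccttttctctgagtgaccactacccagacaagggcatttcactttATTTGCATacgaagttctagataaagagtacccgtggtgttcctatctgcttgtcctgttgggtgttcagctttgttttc
The octamer was in 6 of 16 H2B and 7 of 17 H2A promoters, in none of the 6 H1, 10 H3 and 12 H4 promoters, and in 1.74% of all 32851 promoters. CCAAT was in all H1, H2A, H2B and H3 promoters, in 3 of 12 H4 promoters and in 37.4% of all promoters, and TATAAA in 35 of 61 histone promoters against 13.6%. The histone counts use the first listed promoter of each gene, while the shares of all promoters count every one. A second promoter of Hist1h2be, not counted, holds the octamer. Promoters of head-to-head pairs can overlap, so the same octamer can count for H2A and H2B, as for Hist1h2ah and Hist1h2bk. These matches describe the sequence only.

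The 3 lines were then compared. The study's methods called an RNA enriched by WT WDR5 where the lower of both WT scores exceeded 0 and each of the 4 control scores, from F266A and empty vector IPs. The methods applied it to a transcriptome that also held UCSC genes and published predictions, and they state no value added to RPKM. Here it was applied to the deposited rows with the scores defined above, and 1157 of 24132 rows met it. The rows named below therefore need not be those that the study called. This rule was met by 15 of 75 members (13 of 73 distinct ones), 20% of them, against 4.79% of all rows. They were 12 H2B rows and 3 H4 rows, namely Hist1h2bb, Hist1h2be, Hist1h2bg, Hist1h2bh, Hist1h2bk, Hist1h2bl, Hist1h2bm, Hist1h2bp, Hist1h2bq, Hist1h2bq.2, Hist1h2br and Hist1h2br.2, with Hist1h4m, Hist1h4n and Hist1h4n.2. With F266A in the place of WT 0 members met it, against 13.6% of all rows, and with the empty vector 0, against 3.96%. All rows include those at 0 in every library, which cannot meet the rule. Of the 24132 rows 20431 were above 0 in at least 1 library, while 74 members were above 0 in all 9. The shares of members and of all rows are therefore not on a like footing.

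The margins were narrow. The lower WT score exceeded the highest control score by 0.00051 to 0.16 with a median of 0.03, and by less than 0.1 in the 12 H2B rows. For Hist1h2bk the WT scores were 0.72 and 0.43, the F266A scores 0.40 and 0.35 and the empty vector scores 0.34 and 0.26. For Hist1h4m the WT scores were 0.23 and 0.015, against −0.14 and −0.19 for F266A and −0.21 and −0.30 for the empty vector. WT IP 1 stood out in both.

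The WT input was the lowest of the 3 inputs for all 15 members that met the rule. Against the mean of the 3 inputs, used for every IP, 1 member met it, Hist1h1t, against 4.35% of all rows. Judged by WT IP 1 alone, without WT IP 2, 46 members met it, against 13.4% of all rows, and by WT IP 2 alone 16, against 13.9%. Without F266A IP 1 among the controls 24 met it, against 8.19% of all rows, and without F266A IP 2 16, against 7.03%.

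**Figure D5:**
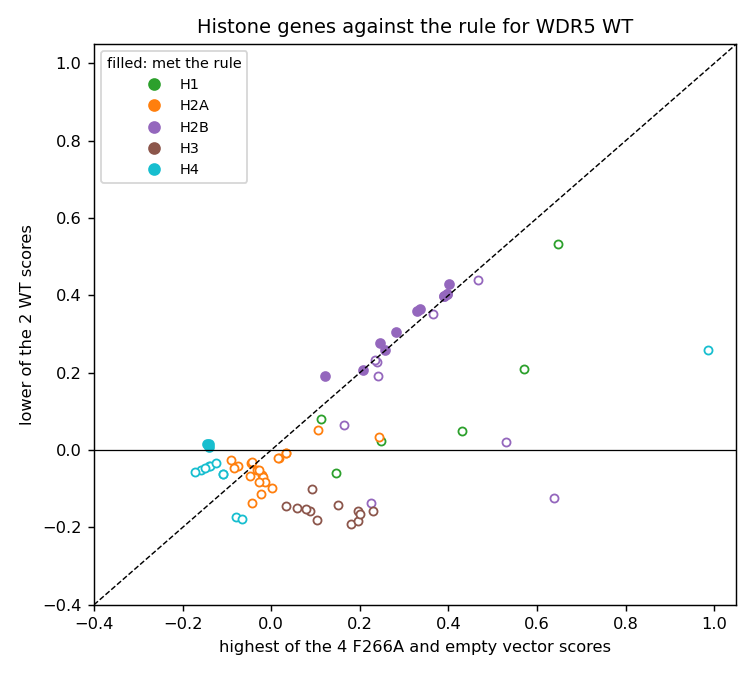
Lower of the 2 WT scores against the highest of the 4 control scores (F266A and empty vector IPs) for each histone gene, coloured by type and filled where the rule was met. Points above the dashed line of equality and above 0 met the rule, and the 12 filled H2B points lie within 0.1 of that line.

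Tests between lines called no histone gene. Between WT and F266A IPs, 0 of 71 members were called in either direction, where 0.777% of all genes tested were higher in WT and 0.388% lower. Between F266A and empty vector IPs 0 were called, where 1.16% were higher and 3.38% lower, and between WT and empty vector IPs 0 were called among members and 0% among all genes. Unadjusted p-values under 0.05 numbered 0 among members in each of these comparisons, against 1514, 1993 and 557 of all genes. The differences of single members ran from −0.20 to 0.18 between WT and F266A IPs, with a median SE of 0.14, from −0.39 to 0.25 between WT and empty vector IPs, and from −0.30 to 0.23 between F266A and empty vector IPs. Differences within that range were thus not resolved with 2 IPs a line. The members with the smallest p were Hist2h3c1 between WT and F266A (−0.20, SE 0.17, adjusted p = 0.633), Hist2h4 between WT and the empty vector (−0.39, SE 0.21, adjusted p = 0.881) and Hist2h2ab between F266A and the empty vector (−0.30, SE 0.16, adjusted p = 0.350).

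Correcting each line for its own input gave no call, and more members were above 0 than between the IPs themselves. Between the IPs 29 of 71 members were above 0 for WT against the empty vector, 33 for F266A against the empty vector and 39 for WT against F266A. Relative to the empty vector, the input-corrected difference of WT was above 0 in 70 of 71 members with a median of 0.28 (all genes 0.0061), and highest in H3 (0.37) and H4 (0.36). For F266A against the empty vector it was above 0 in 68 members with a median of 0.13 (all genes 0.10), and for WT against F266A in 60 members with a median of 0.13 (all genes −0.09). These comparisons share inputs and IPs, and the lower histone levels of the WT input enter them directly. By limma 0 members and 0% of all genes were called in each, and 0 members had an unadjusted p under 0.05, with a median SE of 0.25. The smallest p-values belonged to Hist1h4m for WT against F266A (0.29, SE 0.23, adjusted p = 0.9998), Hist1h2aa for WT against the empty vector (0.52, SE 0.26, adjusted p = 0.99995) and Hist1h1a for F266A against the empty vector (0.47, SE 0.28, adjusted p = 0.9996).

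The IP replicates of the tagged lines differed for whole types. The difference between IP 1 and IP 2 had a median of 0.34 for H2B, 0.33 for H3 and 0.19 for H4 in the WT line, and of 0.35 for H1, 0.31 for H3 and 0.23 for H2A in the F266A line, where the medians of all genes were −0.0070 and 0.05. For all types it was 0.04 to 0.12 in empty vector cells. WT IP 1 had the highest RPKM of the 6 IPs in 17 of 21 H2B rows and 11 of 14 H4 rows, and F266A IP 1 in 15 of 22 H2A rows, 11 of 12 H3 rows and 5 of 6 H1 rows. The high library thus depended on the histone type.

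Genes that make, process or replace these messages were read in the same libraries. Slbp, the stem-loop binding protein, had an RPKM of 4.02, 4.13 and 3.59 in the empty vector, WT and F266A inputs and of 7.53, 7.005, 6.93, 5.52, 7.57 and 6.29 in the IPs. All IPs exceeded all inputs (0.66, SE 0.10, adjusted p = 0.0033). Npat, the activator of the clusters, had 4.05, 4.14 and 4.30 in the inputs and 3.88 to 5.75 in the IPs, a difference of 0.09 (SE 0.09, adjusted p = 0.351), which fell to −0.25 under quantile normalization. Of 28 genes tested for transcription and 3′ end processing of histone mRNA, 16 were higher and 0 lower, beside 56.4% of all genes higher, with a median of 0.29, close to that of all genes. Fip1l1 and Ncbp2, of cleavage and polyadenylation and of the cap-binding complex, were among those higher (0.57 and 0.49).

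Replication-independent histone genes, whose messages mostly have poly(A) tails, had a median difference of 0.58, against 0.30 for all genes, and 8 of the 11 tested lay above the latter. By the test 8 were higher and 0 lower, beside 56.4% of all genes higher. H2afz, the variant H2A.Z, had 90.2, 87.3 and 105 in the inputs and 178, 156, 159, 133, 162 and 167 in the IPs (0.75, SE 0.10, adjusted p = 0.0031), and remained higher under quantile normalization (0.34, adjusted p = 0.0466). H3f3b, which encodes H3.3, had the larger difference of 1.07 (SE 0.17, adjusted p = 0.0037), and H2afy and Cenpa had 0.73 and 0.58. Replication-dependent H2A and H3 genes, with medians of −0.14 and −0.12, thus lay below their replication-independent relatives in the same libraries, a difference given here without a test.

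Of 25 S phase genes 22 were higher and 0 lower, beside 56.4% of all genes higher, with a median of 0.47, among them Mcm3 (0.54), Gins1 (0.54) and Uhrf1 (0.56). Of 19 histone chaperones 13 were higher and 0 lower, beside the same 56.4%, with a median of 0.31, among them Chaf1a (0.51), Set (0.63), Nasp (0.54) and Anp32e (0.42). With each library centred on its median, 0 genes of these 4 lists were called in either direction, and with quantile normalization H2afz alone was. Between lines, Mcm6, a subunit of the replicative helicase, was the only gene of the lists that was called, lower in the F266A than in the empty vector IPs (−0.58, SE 0.12, adjusted p = 0.0416). Empty vector IPs had an RPKM of 20.5 and 19.2 for it, against 13.3 and 12.7 with F266A. It was also lower in the F266A input, at 9.31 where the empty vector input had 13.8, and the input-corrected difference was −0.05 (SE 0.21, adjusted p = 0.9996).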

How the data were processed

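RIPiT-seq of 3 ESC lines was analysed, with 1 input and 2 IP libraries each. According to the study's methods, the authors mapped reads to mm9 with TopHat 1.1.3, and the deposited table holds RPKM per gene symbol from their own script. Its normalization leaves differences in the share of reads on genes, estimated at 20.1% to 22.6% in the inputs and 27.2% to 29.5% in the IPs. Read counts were not used here. Library columns were assigned by their labels.

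Members and gene lists were chosen with earlier results of these data known. Of each list the text names the genes with the smallest p, and of the members those with the highest level and the highest or lowest score per type, those called, those with equal rows, the testis genes and those that met the methods' rule. Hist1h2ac, Hist1h2ah, Hist1h2bj, Hist2h2be, Hist3h2bb-ps and Hist4h4 were named after their values were seen.

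limma 3.58.1 in R 4.3.3 was fitted to log2 (RPKM + 1) of 9787 genes with 6 group means, contrasts and eBayes with trend, and p-values were adjusted by Benjamini-Hochberg over all genes tested at a threshold of 0.05. The spread came from the 3 pairs of IPs, and inputs, with 1 library each, were assumed to vary alike. The procedure was tested on simulated data. Alternatives changed the pseudocount, filter, scaling, trend, replicate block, inputs and libraries left out. Depth was estimated from the lowest RPKM steps. Sequences were read from mm9 with GENCODE M1, and promoters from RefSeq (GRCm38.p6), where 67 of 68 symbols matched and 61 had a promoter. Python 3.11.15, numpy 2.4.6 and pandas 2.3.3 were used.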

Additional observations from a re-analysis of the deposited data

Results flagged for a closer look

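Some genes had both scores of 1 line above 0 and both of another line below 0, and these differences were not tested beyond the limma comparisons of the report, in which no histone gene was called. Hist1h4m, Hist1h4n and Hist1h4n.2, which share their coding windows, had WT means above those of the empty vector by 0.38, 0.38 and 0.36 and above those of F266A by 0.29, 0.29 and 0.28. Hist1h1a had WT scores of 0.05 and 0.08 and empty vector scores of −0.16 and −0.37, a difference in means of 0.33. Hist2h2ac had a difference of 0.16 between WT and the empty vector. Hist1h1t, whose RPKM was 0.282 or less in every library, had differences of 0.27 for WT and 0.21 for F266A against the empty vector. Over all 75 members, 7 had WT above 0 and the empty vector below 0, Hist1h4m, Hist1h4n and Hist1h4n.2 among them, and 0 had the reverse. The share of all genes with such scores was not counted. The WT input was the lowest of the 3 inputs for 66 members, and each score of a line shares that line's 1 input.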

How the results depend on the processing

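The counts of 0 calls between lines were 0 in both directions under every alternative tried, and inputs without replicates limit all input-corrected values. The number of members higher in the IPs than in the inputs was 14, and 12 to 18 with pseudocounts of 0.1 and 0.01, a minimum RPKM of 0.1, no trend, an additive fit or the replicate block (18). The replicate number as a block changed no other count past 1.5 times. The IP replicates shared numbers only (correlation of IP 1 minus IP 2 between lines 0.01 to 0.26). The count was 4 with no filter, 0 with quantile normalization, 0 with median centring, 7 without the empty vector line, 8 without the F266A line, an alternative chosen after seeing the data, and 7 to 19 with each IP left out in turn. Members lower numbered 44 with quantile normalization and 2 with median centring. The medians of H1, H2A, H2B, H3 and H4 moved to −0.35, −0.53, −0.092, −0.58 and −0.56 with quantile normalization and to −0.30, −0.45, −0.0042, −0.43 and −0.45 with median centring. Signs turned with quantile normalization for Hist1h2bq and Hist1h2br (−0.092 each), Hist1h2bq.2 and Hist1h2br.2 (−0.086 each), Hist1h2bb (−0.045), Hist1h2bp (−0.042), Hist1h2bj (−0.021), Hist1h2be (−0.16) and Hist1h2bl (−0.13), and with median centring for Hist1h2be (−0.024) and Hist1h2bl (−0.0042). Both scalings remove the general rise of the IPs by construction. Summed RPKM of IPs over inputs had a mean log2 ratio of 0.25, −0.14, 0.31, −0.13 and −0.12 for H1, H2A, H2B, H3 and H4, and of −0.065, −0.45, −0.0038, −0.45 and −0.44 with every library scaled to the same sum. The rule for WT was met by 15 members, by 1 against the mean of the 3 inputs, by 12 with centred scores, by 16 to 46 with 1 WT replicate left out, and by 24 and 16 without F266A IP 1 and IP 2, also chosen after seeing the data. The cause of these changes was not tested.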
